A study of Mus musculus with 4 samples.

Results

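The regions described here are 3765 strong H3K27ac peaks of mouse neural stem cells, found in both peak lists of the study. They lie away from the ends of genes, though 72.8% of the summits were inside a gene. They were selected from the control list on chromosomes 1 to 19 by 3 limits. The fold enrichment had to be at least 5, the peak had to overlap a peak of the Smchd1-deleted list by at least 1 base, and the summit had to lie over 5 kb and at most 50 kb from the nearest end of any RefSeq protein-coding or lncRNA gene. They make up 5.98% of the 62955 control peaks on these chromosomes and 20.7% of the 18187 with a fold enrichment of at least 5. Fold enrichment is the pileup of ChIP fragments at the summit over the local background that the peak caller estimated from the input library, so it is a ratio within a library and not a difference between libraries.

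The study measured acetylation of lysine 27 on histone H3 by ChIP-seq in cells labelled as neural stem cells, cultured from female embryos of day E14.5. There were 4 libraries: a ChIP and a whole-cell-extract input from Smchd1-deleted cells, and the same pair from Smchd1-control cells. Smchd1 encodes a chromosomal protein of the SMC family that is known for its part in silencing on the inactive X chromosome and at imprinted clusters. Per the growth protocol all lines began with 1 deleted and 1 floxed Smchd1 allele. They also had a maternal X chromosome of 129 origin with an Xist deltaA allele and a paternal Castaneus X chromosome, while the strain field gives C57BL/6. Deleted cells received the MSCV-Cre-puro retrovirus, had puromycin from 24 h on and were taken on day 7. Control cells came from the same lines and stayed untransduced, so deletion, viral transduction and selection cannot be told apart. Groups follow the sample titles, with which other label fields disagree. The antibody field names H3K27me3 for both ChIPs, the control ChIP is fl/fl by title and del/fl by genotype, and the control input is del/del by genotype. Smchd1 itself had an acetylation peak at a gene end of 8.88 in the control list and 7.72 in the deleted list, which is no check of the deletion. With 1 ChIP library in each group nothing here has a replicate, and the intervals given cover counting error only.

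H3K27ac is laid down by the acetyltransferases p300 and CBP at active promoters and at active enhancers, stretches of DNA outside promoters that bind transcription factors and act on genes over a distance. Peaks far from gene ends are for that reason often read as enhancers. In neural stem cells such elements are known to bind SOX2, NFI proteins and basic helix-loop-helix factors, which hold the progenitor state. Enhancers also carry other marks, such as H3K4me1, which were not analysed here. The gene table gives 1 start and 1 end for a gene, and many genes have further starts inside them. These were checked against RefSeq windows that run from 250 bases before to 50 bases after each annotated start.

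A part of the peaks lay at annotated starts, where the label of enhancers is in doubt, and for the rest the lack of a start does not show that they are enhancers. Of the 3765 peaks, 220 overlapped an annotated start window, which is 5.84% (exact 95% interval 5.12% to 6.64%). Over all control peaks at the same distances the share was 1.51%, and over those of lower fold enrichment it was 0.725%. The overlap can depend on width, and the median width was 618 bases in the set and 260 in the peaks of lower fold enrichment. A wider measure, a summit within 1 kb of an annotated start, held for 389 of the peaks. This was 10.3%, against 1.86% of those of lower fold enrichment. Of all 3765, 86 lay within 1 kb of an end of another kind of gene, such as a miRNA, snRNA or pseudogene. In all 474 peaks (12.6%) met at least 1 of these conditions, and 3291 met none. The set is therefore called strong shared distal peaks below, not enhancers. Starts were more frequent among the strongest: 35 of the 159 peaks with a control fold enrichment of at least 10 overlapped a start window (22.0%, interval 15.8% to 29.3%).

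The sequences before 4 of these internal starts are shown because each start lies wholly inside a strong shared distal peak with a control fold enrichment above 11. All are RefSeq sequences on GRCm38.p6, read 5′ to 3′ on the gene's strand, and they end at the base before the annotated start. Capitals mark CpG dinucleotides, the target of DNA methylation in mammals. The Nfix stretch, chr8:84780083-84780332 on the minus strand, held 11 CpGs. Nfix encodes a nuclear factor I transcription factor of neural progenitors, and its peak had a fold enrichment of 16.9 in the control list and 14.8 in the deleted list. The Disc1 stretch, chr8:125053945-125054194 on the plus strand, held 25 CpGs and a GC box (GGGCGG). Disc1 encodes a scaffold protein of the centrosome, and the peak had 11.7 and 11.2. The Zmynd8 stretch, chr2:165858174-165858423 on the minus strand, held 11 CpGs. Zmynd8 encodes a reader of histone modifications, and the peak had 11.7 and 12.4. The Plekhb1 stretch, chr7:100656966-100657215 on the minus strand, held 1 CpG, a CCAAT box and a SOX sequence (ACAAAG or ACAATG). Plekhb1 encodes a pleckstrin-homology protein of neural tissue, and the peak had 13.7 and 14.6.
Nfix: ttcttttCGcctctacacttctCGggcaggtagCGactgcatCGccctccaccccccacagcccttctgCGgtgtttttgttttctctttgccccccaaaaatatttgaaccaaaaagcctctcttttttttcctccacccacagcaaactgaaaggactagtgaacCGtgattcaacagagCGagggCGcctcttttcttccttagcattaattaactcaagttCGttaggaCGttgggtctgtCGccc
Disc1: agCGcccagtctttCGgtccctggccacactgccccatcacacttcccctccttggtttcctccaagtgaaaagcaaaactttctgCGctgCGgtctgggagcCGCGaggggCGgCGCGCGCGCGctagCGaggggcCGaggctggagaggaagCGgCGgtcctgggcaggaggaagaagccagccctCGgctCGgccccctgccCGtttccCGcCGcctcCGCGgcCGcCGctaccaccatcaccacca
Zmynd8: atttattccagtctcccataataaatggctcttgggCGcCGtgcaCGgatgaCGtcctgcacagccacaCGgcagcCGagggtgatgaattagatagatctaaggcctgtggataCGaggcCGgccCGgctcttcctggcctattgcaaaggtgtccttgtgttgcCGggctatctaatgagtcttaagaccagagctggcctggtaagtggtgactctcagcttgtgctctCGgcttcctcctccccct
Plekhb1: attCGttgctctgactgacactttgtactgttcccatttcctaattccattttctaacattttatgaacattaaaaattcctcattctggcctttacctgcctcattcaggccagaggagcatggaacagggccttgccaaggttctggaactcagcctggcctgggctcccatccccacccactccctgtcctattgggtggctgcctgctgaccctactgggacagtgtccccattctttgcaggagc

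Side by side, the Disc1 stretch held the most CpGs of the 4 and the Plekhb1 stretch the fewest. Over the 215 start windows that the peaks overlapped, the median number of CpGs was 17 in 300 bases, against 7 over all 31395 windows of the table, and the median GC content was 60.7% against 53%. The 215 windows belong to 185 genes, and only 45 of the windows lay wholly inside a peak. These values therefore describe starts at or beside the peaks, and the windows of the table were not limited to starts with a peak. The motifs were searched on both strands. The GC box GGGCGG was found in 56.7% of the 215 windows and in 36.0% of all windows. The TATA box TATAAA was in 5.58% against 13.6%, and CCAAT was in 30.7% against 37.3%. The E-box CACGTG was in 6.51% against 7.14%, the cyclic AMP response element TGACGTCA in 3.26% against 1.83%, and the SOX sequences ACAAAG or ACAATG in 24.2% against 28.1%. The NFI sequence, TTGGC and GCCAA with any 5 bases between, was in 0 of the 215 windows and in 0.0382% of all. These matches describe letters in the windows and are not binding sites.

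A second group of sequences inside the peaks codes for miRNAs, small RNAs that pair through their seed with target messenger RNAs. The peaks overlapped 12 miRNA hairpins in 10 peaks, out of 919 hairpins on these chromosomes. The share of peaks over a hairpin was 0.266% (interval 0.127% to 0.488%), against 0.0477% (0.0229% to 0.0877%) for weaker distal control peaks. The median widths were 618 and 260 bases, and the shares were not matched for width. The 4 mature miRNAs shown come from hairpins that are best known in the nervous system or in stem cell differentiation. Capitals mark the seed, bases 2 to 8, and the 4 seeds differ. The sequences are from RefSeq on GRCm38.p6.
mmu-miR-9-5p: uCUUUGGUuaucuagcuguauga
mmu-miR-9-3p: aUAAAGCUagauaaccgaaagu
mmu-let-7i-5p: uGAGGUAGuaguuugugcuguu
mmu-miR-128-3p: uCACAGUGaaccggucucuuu

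Both arms of miR-9, which restrains progenitor proliferation and promotes neuronal differentiation, are made from 3 loci, and each had a strong shared distal peak at or near it. The Mir9-1 hairpin, chr3:88215598-88215686, lay in the peak with the highest control fold enrichment of the whole set, 22.0, and that of the deleted list was 21.3. That peak spanned chr3:88214530-88217519 inside the lncRNA gene Gm3764 and overlapped an annotated start window of that gene by 2 bases, and 8 strong shared distal peaks lay within 50 kb of the hairpin. A miRNA hairpin on the other strand, Gm25641, and Mir3093 lay in the same peak. The Mir9-3 hairpin, chr7:79505264-79505353, lay in a peak of 11.9 in the control list and 11.1 in the deleted list, in its host gene Mir9-3hg, and 2 peaks of the set were within 50 kb. Mir9-2 lay in none, but the nearest peak, 4249 bases away, had 12.3 and 12.8, and 5 were within 50 kb. Mirlet7i, chr10:122985640-122985724, lay in a peak of 9.28 and 11.1, between genes. Mir128-2, chr9:112118636-112118711 inside the gene Arpp21, lay in a peak of 5.04 and 5.21, close to the lower limit. The deleted values at these loci thus ran from 5.21 to 21.3, with the lowest and the highest at the same loci as in the control list. Whether the miRNAs were expressed was not analysed here.

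In level, the strong shared distal peaks were mostly close to the limit that selected them. Their control fold enrichment had a median of 5.85, quartiles of 5.33 and 7.00 and a range of 5.02 to 22.0. The median pileup was 29 fragments and the median width 618 bases. Of the 3765 peaks, 496 reached 8, 159 reached 10 and 5 were above 15. At the limit itself, the lowest peaks inside were 2 of 5.02, near Gm16958 and Gm10125, and the highest outside were 125 of 4.99999, among them peaks near Lonrf2 and Rfx8. The many equal values come from whole numbers of fragments over a background that sits at its genome-wide floor for most peaks. The control background was more than 2% above the floor for 12.8% of the set, and the deleted one for 23.0%.

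The highest of the 12 top peaks was the Mir9-1 peak. The next, chr15:85671381-85673359, lay between genes near the lncRNA gene D130051D11Rik and had 18.6 in both lists. Of another 2 peaks of the same locus, the first had 14.7 in the control list and 16.6 in the deleted list, and the other 14.5 in the control list and a lower value, above 12, in the deleted list. A peak in Hexim2, which encodes an inhibitor of the elongation factor P-TEFb, had 18.4 and 17.5. A peak in Meis2, a homeobox gene, had 17.2 and 16.3. The Nfix peak above followed with 16.9 and 14.8, and a peak in Hip1, which lay over an annotated start, with just under 15 and 14.4. The peak near Midn, the midnolin gene, had 14.7 and 15.1. The last 3 of the 12 had 14.1 in the control list. They lay near Sox2, the transcription factor of neural progenitors, with 14.6 in the deleted list, in Gm11266 beside the nuclear factor I gene Nfib with 16.1, and in Ptch1, the receptor of Sonic hedgehog, with 14.1. All of these 12 were above 12 in the deleted list.

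**Figure D1:**
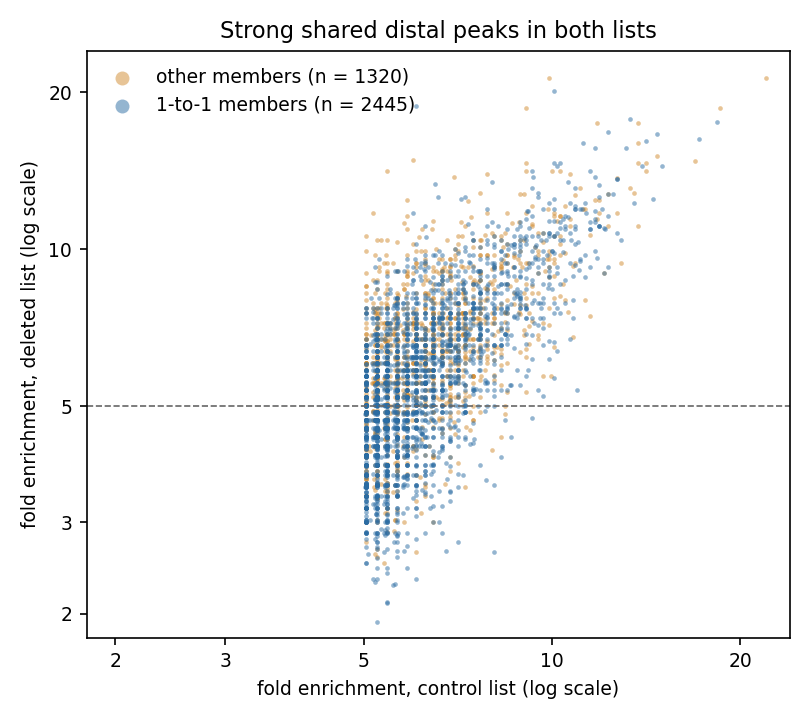
Fold enrichment of the 3765 strong shared distal peaks in the control list (x axis, log scale) and in the deleted list (y axis, log scale), 1 point a peak. Blue points are the 2445 peaks that overlap 1 deleted peak and no other control peak shares it, orange points the other 1320, and the dashed line marks 5 in the deleted list, above which every peak of at least 10 in the control list lies.

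The stronger a peak was in the control list, the more often it was also strong in the deleted list. The overlap with a deleted peak belongs to the rule: 97.3% of the 3871 strong control peaks at these distances had one, and over all 62955 control peaks 75.6% did. The deleted fold enrichment was not used by the rule. Its median over the 3765 peaks was 5.71, with quartiles of 4.67 and 7.33 and a range of 1.93 to 21.3. It reached 5 in 2511 peaks, 66.7% (interval 65.2% to 68.2%), and in 82% of strong shared control peaks at any distance. The share rose to 86.7% of the 1781 peaks of at least 6 in the control list, to 98.0% of the 496 of at least 8 and to all of the 159 of at least 10, for which the interval begins at 97.7%. At the other end 70 peaks were below 3 in the deleted list. For a peak with several deleted partners the highest was taken, and a partner that spans several control peaks may have its summit in another of them.

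The selection favours peaks that came out high in the control library, so the same rule was also started from the deleted list. It then found 3840 peaks, of which 61.6% (interval 60.1% to 63.2%) had a control fold enrichment of at least 5. Of the 3765 peaks 65.9% overlapped 1 of these 3840, and 61.2% of the 3840 overlapped 1 of the 3765. Over the 2445 pairs that matched 1 to 1, Spearman's rho between both fold enrichments was 0.627, a description over peaks cut at 5 in 1 list.

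At the same control fold enrichment, distal peaks came back strong in the other library less often than peaks at gene ends. This comparison was chosen after the data had been seen. Among control peaks from 5 to 5.5, 43.3% of the 1357 strong shared distal peaks (interval 40.7% to 46.0%) and 69.0% of the 1578 shared peaks within 1 kb of a gene end (66.7% to 71.3%) reached 5 in the deleted list. From 6 to 7 the shares were 78.1% and 90.3%, and from 10 on they were 100% and 99.9%. Over 1-to-1 pairs from 5 to 5.5 they were 35.7% and 64.6%. Started from the deleted list, the shares in the lowest bin were 36.6% and 49.7%. The intervals of both kinds of peak were apart in this bin in both directions, within these 2 ChIP libraries. The deleted library had 54194233 ChIP tags after filtering and the control library 42277672, and the part of depth in these shares was not tested.

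**Figure D2:**
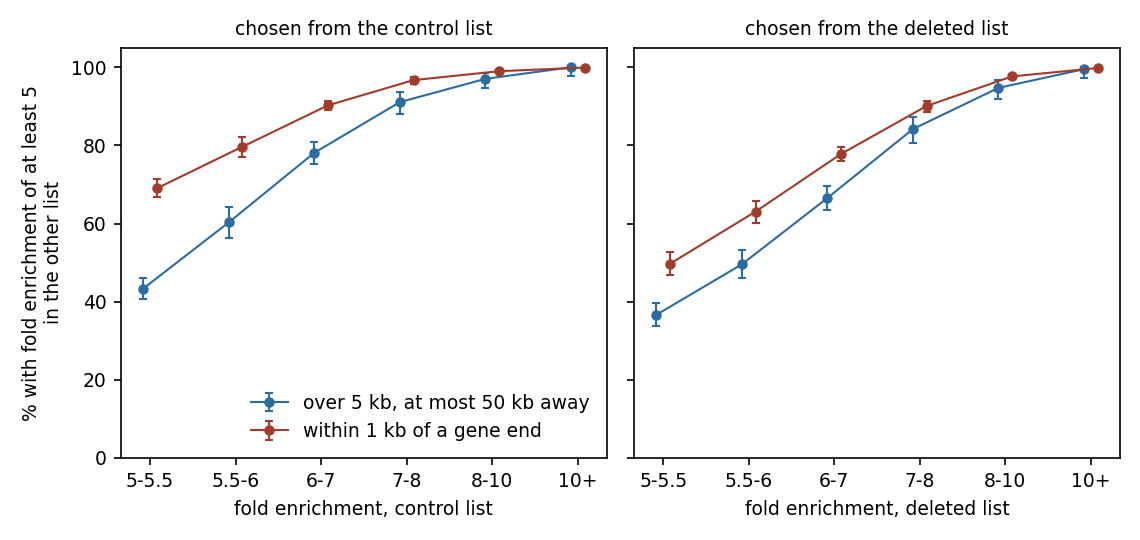
Share of shared peaks with a fold enrichment of at least 5 in the other list (y axis, %), by fold enrichment in the list they were chosen from (x axis), with exact 95% intervals. Blue stands for peaks over 5 kb and at most 50 kb from a gene end and red for peaks within 1 kb of one; in the lowest bin the shares are 43.3% and 69.0% from the control list (left) and 36.6% and 49.7% from the deleted list (right).

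Summits of both libraries mostly lay close together, and the peaks were wider in the deleted list. The median width of the deleted partner was 815 bases against 618, and over 1-to-1 pairs 653 against 574, with the deleted peak the wider in 65.2% of these pairs. In 400 cases a control peak had more than 1 deleted partner, and in 920 a single deleted peak covered other control peaks as well. The remaining 64.9% of the set paired 1 to 1, against 79.3% of strong shared peaks at gene ends. Whether peaks outside the set were also wider in the deleted list was not examined here. Over the 2445 1-to-1 pairs the summits of both libraries were a median of 61 bases apart. They lay within 100 bases of each other in 64.7%, against 71.8% of strong 1-to-1 pairs at any distance, 75.8% at gene ends and 54.8% of the weaker distal pairs. In peaks of 400 bases or less the share was 81.3% for the set and 91.1% at gene ends, so the order held at like width. Among peaks of 800 bases and more the shares were 51.9% and 65.2%.

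Falls in rank outnumbered rises when the control list made the choice, and both were about equal in number when the deleted list did. Ranks are percentiles of fold enrichment among the 13142 strong 1-to-1 pairs at any distance, so they do not depend on the scale of a list. Of the 2445 pairs, 223 rose by at least 25 percentile points in the deleted list (9.12%, against 11.1% of all strong pairs), and 316 fell by as much (12.9%, against 10.8%). Started from the deleted list, 295 of 2576 distal pairs were higher by that much in the control list and 298 were lower. With a single library on each side these are differences between libraries.

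The 5 largest rises were led by a peak in Zbtb7c, a zinc finger gene on chromosome 18, nearest to the lncRNA gene Gm52362. Its fold enrichment was 5.20 in the control list and 9.23 in the deleted list. A peak in Kirrel3, a gene of synaptic adhesion, had 5.29 and 9.57, a peak near Pom121l2 had 5.20 and 8.67, and a peak in Nrbp1 had 5.25 and 8.67. The peak in Camk2b, which encodes the beta subunit of calcium/calmodulin-dependent kinase II, spanned chr11:6006334-6008018 and had 6.05 and 18.8. Its pileup was 29 fragments in the control library and 111 in the deleted library, at widths of 1685 and 1826 bases. Among the 14 peaks nearest to Camk2b the highest control value was 12.1.

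The 5 largest falls were led by a peak in Plppr1, a gene of neuronal process growth, nearest to the lncRNA gene Gm32657, with 8.07 and 2.63. A peak in Impact, an imprinted gene that regulates translation, had the same 8.07 and then 3.53. A peak in Nudcd3 had 10.98 and 5.36 with a pileup of 58 in both libraries, so there the local background differed. Pileups are not scaled between the libraries, and the deleted one had 1.28 times the filtered ChIP tags of the control one. A peak near Pabpc6 had 8.27 and 4, and a peak in the acyl-CoA thioesterase gene Acot11 had 9.28 and 4.75. The lowest of the 5 in the deleted list, 2.63, still passed the caller's q-value limit of 0.05.

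Position was fixed by the rule only within its limits. The median distance to the nearest gene end was 14010 bases and that to the nearest protein-coding gene end 20090 bases. Of the peaks 34.1% lay 5 to 10 kb away, 32.6% lay 10 to 20 kb away and 6.19% lay 40 to 50 kb away. The share of control peaks that reached a fold enrichment of 5 was 16.3% between 5 and 10 kb and 14.3% between 40 and 50 kb, with intervals that overlapped from each bin to the next, against 56.5% within 1 kb of a gene end. Beyond 50 kb it was 14.6%. Fold enrichment and distance were nearly unrelated over the set (Spearman's rho -0.03). At the limits of distance, the nearest peaks inside were 5003 bases away, near Fcgr1 and Klc3, and the nearest outside 4997 and 4979, near Gm38808 and Trim29. The farthest inside were 49948 and 49893 bases away, near Gm30151 and LOC108168286, and the first outside 50097 and 50137, near Eif4e and Gm15322.

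**Figure D3:**
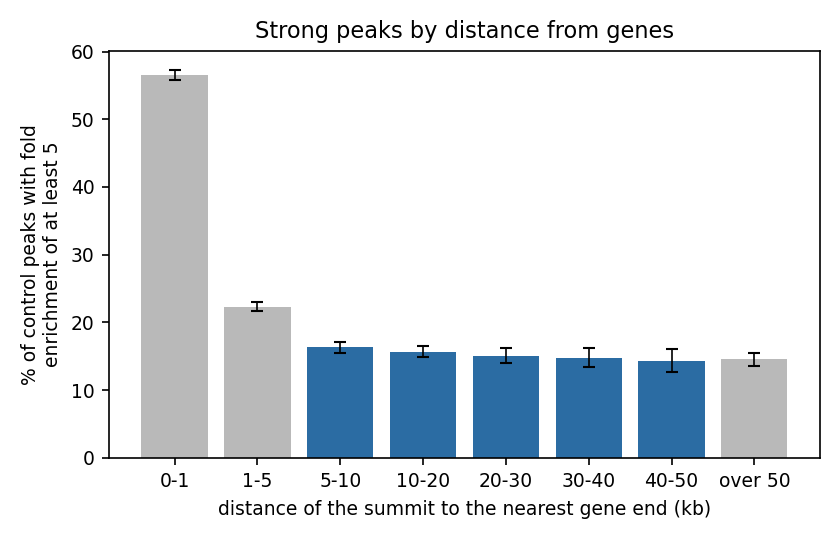
Share of control peaks with a fold enrichment of at least 5 (y axis, %) by distance of the summit to the nearest gene end (x axis, kb), with exact 95% intervals. Blue bars are the distances of the rule, where the share runs from 16.3% to 14.3%, and grey bars the other distances, with 56.5% within 1 kb.

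Most of the peaks lay inside genes, as did peaks of lower fold enrichment at these distances. The summit was inside a gene in 72.8% of the 3765, and in 72.4% of all control peaks at these distances, so the strong peaks did not stand apart. In 67.4% it was inside a protein-coding gene. The 1024 peaks between genes had the same median control fold enrichment, 5.85, as the 2741 inside, and a median of 5.71 against 5.86 in the deleted list. The nearest gene had an H3K27ac peak within 1 kb of an end in both lists for 66.4% of the set, close to the 64.4% over all control peaks at these distances. For nearest lncRNA genes the share was 54.0% (interval 51.3% to 56.6%), against 44.9% (43.8% to 46.0%) for weaker distal peaks, and for nearest coding genes 73.6% against 75.5%. Where the nearest gene had a gene-end peak in the control list, the distal peak was the stronger in 44.0% of 2605 cases. The rule kept only distal peaks of at least 5 and set no limit for the gene-end peaks, so this share favours the distal peaks. It has no background here, and a gene with several distal peaks was counted once for each.

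The peaks were spread over many genes with a few dense clusters. They were nearest to 2045 of 33069 genes of the table (6.18%), and 1273 of these had exactly 1 peak, while 120 had at least 5. Joined when neighbouring summits were at most 12500 bases apart, they formed 2207 runs, of which 1457 held 1 peak. The 101 runs of at least 5 peaks held 692 peaks. The run with the most peaks, 20 over 61.5 kb (chr8:110651465-110712999), lay wholly inside Vac14, which encodes the scaffold of the complex that makes the lipid PI(3,5)P2. Control fold enrichment in it ran from 5.04 to 10.5 and deleted fold enrichment from 3.00 to 8.73, with 16 of the 20 at 5 or above in the deleted list. None of the 20 lay over an annotated start. The local input background was above its floor for 2 of the 20 in the control list and 7 in the deleted list.

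**Figure D4:**
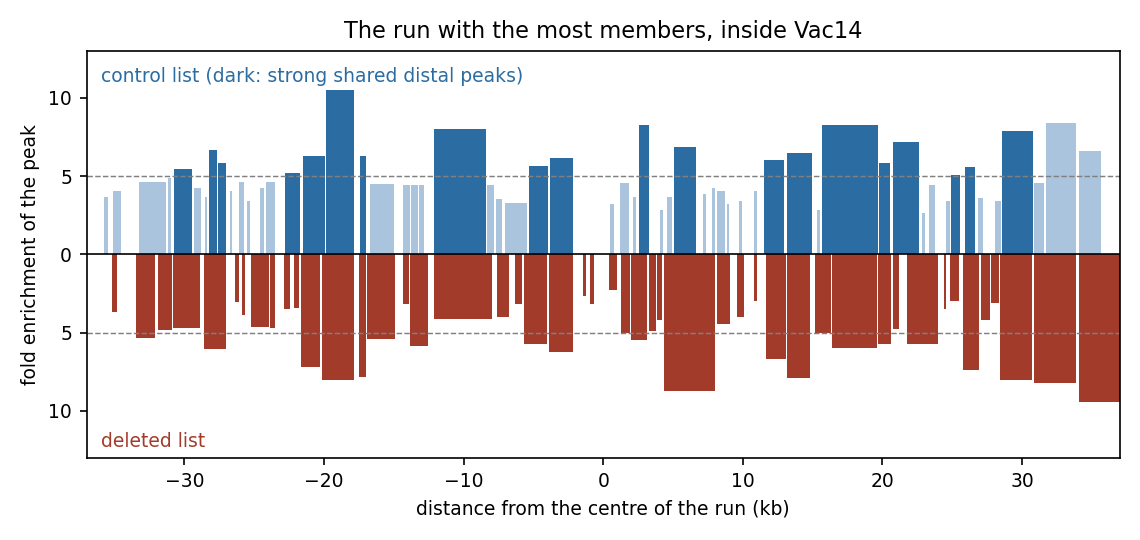
Peaks of both lists along the run inside Vac14 (x axis, kb from its centre), each drawn at its width with its fold enrichment as height, the control list above the line and the deleted list below. Dark blue bars are the 20 strong shared distal peaks, pale bars other control peaks (below 5, or over 5 and outside the limits), and dashed lines mark 5; the highest of the 20 has 10.5.

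The next run by number lay in Nfix. It had 14 peaks over 29.5 kb (chr8:84766043-84795538), with 5.04 to 16.9 in the control list and 5.71 to 14.8 in the deleted list. All 14 reached 5 in the deleted list, and 3 lay over an annotated start. Nfix had no peak within 1 kb of the 2 gene ends in the table in either list. A run of 14 over 48.6 kb lay at Cuedc1 and Mrps23, with 5.04 to 9.68 and 4.03 to 7.39. A run of 13 over 28.3 kb lay between genes at D130051D11Rik, with Wnt7b and Ppara as the nearest coding genes. Wnt7b is a secreted Wnt ligand of the developing forebrain, and values there ran from 5.37 to 18.6 and from 4.20 to 18.6. The run of 13 in Camk2b had 5.04 to 12.1 and 3.86 to 18.8. Another run of 13, over 49.6 kb at Gm42329 and Rpl11 near Id3, had 5.45 to 11.7 and 4 to 11.4. The genes nearest to the most peaks after Vac14, Nfix and Camk2b were Gm46023 with 13 (Tpcn2 the nearest coding gene of 8 and Ccnd1, the cyclin D1 gene, of 5), Kirrel3os with 13, Gm19774 inside Arhgap26 with 13, Gm34804 with 12, Lmf1 with 12, Disc1 with 11 and Nol4l with 11.

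Gene lists for cell types and pathways were set against the peaks through the nearest protein-coding gene, since a lncRNA gene often lies between a distal peak and the coding gene. Over all 20661 coding genes of the table, 8.78% were nearest to at least 1 of the peaks. Of 28 neural stem cell genes 20 were, with 88 peaks. Through the nearest gene of either kind, which the rule keeps within 50 kb, 9 of the 28 were, with 33 peaks. The nearest coding gene had no such limit and lay up to 956071 bases from a peak of the set. As genes with long empty flanks collect more peaks, the share of strong shared ones among all distal control peaks of a list was taken too: it was 25.3% of 348 for neural stem cell genes and 15.2% over all coding genes. Most other lists with peaks were above 15.2% too. The share was 23.1% of 467 for neural transcription factor genes, 22.9% of 144 for Notch, 22.7% of 150 for growth factor, 22.5% of 71 for oligodendrocyte and 20.5% of 83 for astrocyte genes. On few peaks it was 33.3% of 9 for neuron, 27.3% of 11 for imprinted, 23.1% of 13 for pluripotency and 17.2% of 29 for endothelial genes. For immediate early genes it was 9.09% of 33, so by this measure the neural stem cell list did not stand apart from the others. The deleted fold enrichment was at least 5 in 66 of the 88 peaks of neural stem cell genes, and in 2511 of all 3765 peaks (66.7%). The median control fold enrichment was 6.46 for the 88 and 5.85 for all 3765, and this share rose with the control value. Some of the 88 also overlap the same deleted peak, whose value is then counted more than once. The counts are therefore not a like comparison. The lists were written with earlier results of these data known, and the counts are descriptions.

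The neural stem cell list was led by Nfix with 14 peaks, Notch1 with 11, Id3 with 10 and Nfib with 9. Notch1 encodes the receptor that keeps progenitors from differentiating, and its 11 peaks ran from 5.04 to 8.88 in the control list and from 3.67 to 10.4 in the deleted list. Id3 encodes an inhibitor of basic helix-loop-helix factors, with values of up to 8.07 and 9.17. Sox2 had 6 peaks, of which 3 lay 84215, 183887 and 204924 bases from the gene's end. Its 3 nearest, 6896, 8532 and 11579 bases from the gene's end, had 7.20, 9.08 and 14.1 in the control list and 5.87, 14.6 and 14.6 in the deleted list, where the last 2 fell in 1 peak of 7420 bases. Pax6, a homeobox gene of cortical progenitors, had 1 peak of 13.7 and 16.0. Msi1, which encodes an RNA-binding protein of progenitors, had 3 peaks of up to 9.68 and 11.9. Nes, Vim and Sox9 had none, though each had an acetylation peak above 12 at a gene end in both lists. As a check of the cell type, gene-end peaks stood in both lists for 23 of the 28, against 50.5% of all coding genes, and the Nes gene-end peak had 12.9 in both. For astrocyte and radial glia genes it was 10 of 12, so the check does not tell neural stem cells from glia.

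Neural transcription factor genes had the next highest share through the nearest coding gene, with 25 of 44 and 108 peaks, a list that shares Nfix, Nfib, Nfia, Sox2 and others with the first. Through the nearest gene of either kind the order differed: astrocyte genes had 33.3%, neural stem cell genes 32.1% and neural transcription factor and oligodendrocyte genes 27.3% each, against 6.18% of all genes. Meis2 had 2, the higher of 17.2 and 16.3, and Npas3 had 11 of up to 7.06 and 9.83. In the list of astrocytes and radial glia 5 of 12 genes had peaks. Slc1a3, the glutamate transporter of radial glia, had 8, from 5.04 to 8.96 and from 4 to 9.23, and Aldh1l1 had 5, of up to 11.8 and 9.62. In the oligodendrocyte lineage list it was 4 of 11: Cspg4, which encodes the proteoglycan NG2, and Bcas1 had 6 each, and Sox10 had 3 of up to 12.3 and 9.23. In the Notch list 3 of 19 genes had 33 peaks, 21 of them at Maml2, a coactivator gene, and in the growth factor list it was 8 of 26, led by Id3 and by Spry2 with 9.

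Among markers of other cells the counts are small and are to be read against the 8.78% of all coding genes, above which neuron, endothelial and pluripotency genes lay. For neurons it was 2 of 16, Map2 with 2 peaks and Snap25 with 1 of 10.1 and 6.50. Microglia and fibroblast genes had 0 of 8 each, with only 12 and 5 distal control peaks of any strength. Endothelial genes had 2 of 8, Pecam1 with 4 peaks of up to 6.46 and 7.33 and Vwf with 1. Pluripotency genes had 2 of 8, Klf4 and Esrrb, of up to 6.13 and 9.07. At gene ends, where 50.5% of all coding genes had peaks in both lists, 3 of the 16 neuron genes, 1 of the 8 microglia, 2 of the 8 fibroblast, 5 of the 11 oligodendrocyte and none of the 8 endothelial and 8 pluripotency genes had them. Genes that every cell uses stood at the low end: 0 of 22 ribosomal protein genes and 0 of 14 reference genes were nearest to a peak, while 22 and 13 of them showed such peaks at their ends in both lists. These lists had only 5 and 8 distal control peaks of any strength, too few to tell 0 strong shared ones from the 15.2% over all coding genes. Of 12 immediate early genes 2 had peaks. Of 33 imprinted genes 3 did, 9.09%. The 33 include lncRNA genes, such as H19 and Airn, which cannot be a nearest coding gene, so 8.78% is not a like background. Through the nearest gene of either kind it was 3 of 33 too, against 6.18% of all genes. The 3 were Gnas with 8.27 and 5.37, Impact with 8.07 and 3.53, and Trappc9 with 5.04 and 4.03. These are single peaks, 1 library against 1, chosen on their control value. Of all 3765 peaks 33.3% were below 5 in the deleted list. At gene ends 9 of the 33 imprinted genes had peaks in both lists, 8 only in the deleted list and 0 only in the control list. The 8 had deleted values of 3.02 to 4.70, and Peg3 and Usp29 had the same value, 3.02. The deleted list holds 90483 peaks on chromosomes 1 to 19 and the control list 62955. The share of all genes with a gene-end peak only in the deleted list was not computed, so the 8 have no background. The deleted library was the deeper one, and the part of depth in these counts was not tested.

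**Figure D5:**
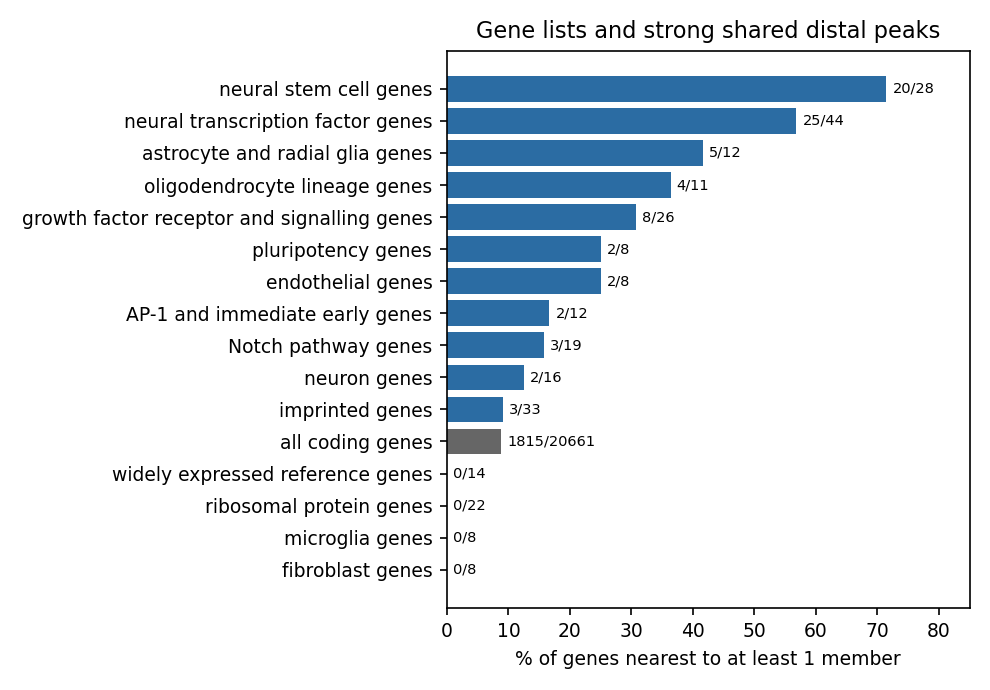
Share of the genes of each list (x axis, %) that are the nearest protein-coding gene of at least 1 strong shared distal peak. That gene may lie at any distance, and the numbers of genes stand beside the bars. The imprinted list holds lncRNA genes too, which cannot count by this measure. Neural stem cell genes reach 20 of 28, all coding genes (grey) 1815 of 20661, and ribosomal protein, reference, microglia and fibroblast genes have none.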

How the data were processed

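Reads had been aligned to mm10 with Bowtie 0.12.9 after bcl2fastq, per the submitters' processing notes. The authors ran MACS2 2.1.0.20140616 on each ChIP library against its own input, as the file headers record: the larger library was sampled down, only 1 tag was kept at a position, and the q-value limit was 0.05. Each deposited list holds, as the authors' caller wrote them, a peak's position, width, pileup signal, −log10 q and fold enrichment, a ratio to the local background. The 2 columns of −log10 p were not used. Filtered ChIP tags of 80 bases numbered 54194233 in deleted and 42277672 in control cells, and filtered input tags 77101643 and 80601280, so more weak peaks can pass in the deeper deleted library.

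Peaks on chromosomes 1 to 19 were matched by an overlap of at least 1 base, and distances were measured from the summit to gene ends of the RefSeq table (GRCm38.p6, the coordinates of mm10) for 20661 coding genes and 12408 genes of lncRNAs. Strand and transcripts are not in it, so a gene end may be the 3′ end. The local background was recovered as (pileup + 1) / fold − 1. Shares have exact Clopper-Pearson 95% intervals. Neighbouring peaks are not independent, and with 1 library in each group no test between conditions was made. Alternatives covered the limits of fold enrichment and distance, the overlap, the kinds of gene, the list length and the starting list. The peaks and gene lists were chosen with earlier results of these data known. Named were the 12 highest peaks, the 10 genes nearest to most peaks, the peaks at each limit, up to 3 genes a list by number of peaks, the 5 largest moves each way, the chromosomes with the highest and lowest share and the 5 largest runs, with a sixth that ties with the fifth. Other named genes, among them the miRNA genes, Pax6, Sox2 and the imprinted genes, were added after their values were seen. An item withheld for evaluation is not reported here. The rule was tested on simulated lists and recovered the 4 planted counts. There genes did not overlap and a peak of the set had at most 1 partner. The choice among several partners, overlapping genes and the rank shifts were therefore not tested. Motifs in the peaks themselves were not run, since no genome was used here. Python 3.11.15, pandas 2.3.3, numpy 2.4.6, scipy 1.17.1 and matplotlib 3.10.9 were used.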

Additional observations from a re-analysis of the deposited data

Results flagged for a closer look

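The rule leaves out the X chromosome, which none of the comparisons above used, and peaks there met its other limits. Of 658 control peaks on X, 31 were strong, shared and over 5 kb to at most 50 kb from a gene end, 4.71% (interval 3.22% to 6.62%), against 5.98% on chromosomes 1 to 19. All 31 strong distal control peaks on X were shared, for which the interval begins at 88.8%. Their median fold enrichment was 5.85 in the control list and 5.88 in the deleted list, and 22 of the 31 reached 5 in the deleted list. The peak lists do not separate the 129 and Castaneus alleles.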

How the results depend on the processing

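Of the alternatives computed, 41 of 71 values stayed within the 95% interval of the reported value (counts within 1.5 times), and 30 moved. With a fold enrichment of at least 4 there were 8746 peaks, 86.2% of strong distal peaks were shared, 43.0% had a deleted value of at least 5, 61.3% of summits were within 100 bases and the median width was 445 bases. With at least 8 there were 496 peaks, 100% were shared, 98.0% had a deleted value of at least 5, 77.2% of summits were within 100 bases, the width was 963 bases, 76.2% were inside a gene and 34.1% moved by at least 25 points. Over 10 kb away there were 2480 peaks, 65.0% with a deleted value of at least 5. With overlap of 50% of both peaks 72.1% were shared, 62.0% of summits were within 100 bases and the width was 659 bases. Against protein-coding genes only, 69.1% had a deleted value of at least 5, 65.6% were inside a gene and 73.3% had a nearest gene with gene-end peaks in both lists. With the deleted list cut to the length of the control list these were 94.7% shared, 68.5% of at least 5 and 64.6% with gene-end peaks. Started from the deleted list, 94.7% were shared, 61.6% were of at least 5 in the control list and the width was 788 bases. Without the 474 peaks at annotated starts or other genes, an alternative added after seeing the data, 64.2% had a deleted value of at least 5, 62.1% of summits were within 100 bases, 70.6% were inside a gene and 68.7% had a nearest gene with gene-end peaks. At most 30 kb away, no value moved. No paired analysis was possible because each group has 1 library, and none could be left out. Depth limits the weak peaks: a member at the limit rests on about 24 fragments.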

Other observations

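Counted by the gene that holds them, and not by the nearest gene end, the strong shared distal peaks were most numerous in Arhgap26, with 28 among 174 control peaks over 774.7 kb. Their control fold enrichment reached 8.88 and the deleted one 9.74. Maml2 held 20 among 108 control peaks over 413.0 kb, of up to 8.20 and 11.1, and Vac14 held 20 among 65 over 101.9 kb. Nfix held 17 among 55 over 96.5 kb. Septin9, which encodes a cytoskeletal GTPase, held 12 of up to 11.8 and 13.8, and Myh9, which encodes a non-muscle myosin heavy chain, held 10 of up to 12.1 and 9.74. In Msra, a methionine sulfoxide reductase gene, 11 were found, of up to 11.9 and 12.6.

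By chromosome, the share of control peaks that belonged to the set was highest on chromosome 18, with 161 of 1920 (8.39%, interval 7.18% to 9.72%), and lowest on chromosome 7, with 219 of 4875 (4.49%, 3.93% to 5.11%). Over all 19 autosomes the share was 5.98%. Both chromosomes were picked as extremes and neighbouring peaks are not independent, so the intervals do not test a difference from that share. On chromosome 18, 74.5% of the peaks had a deleted fold enrichment of at least 5, and on chromosome 7, 69.4%. Gene density was not set against these shares.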
